A study of Mus musculus with 12 samples.

Results

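The 9 genes described here are targets that type I interferon is known to induce: Ifit1, Ifit3, Isg15, Irf7, Oasl2, Rsad2, Usp18, Bst2 and Rtp4. They were measured in spinal cord of young mice with a mutation of glycyl-tRNA synthetase. They were taken by gene symbol, without use of their values, and are 9 of the 38924 genes in each library's file. All 9 were counted in every library and all 9 passed the filter on low counts that left 17995 genes for testing. None of the 9 differed between the genotypes past the threshold. They were expressed at low levels. Over 6 libraries each, their levels tended to vary together among wt mice (median r of the pairs 0.67) and less so among P278KY mice (0.28). Of the 6 wt libraries, 2 had sex-linked expression opposite to their label, and this difference was not tested. The spread was also wider among wt mice.

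Whole spinal cord was profiled by poly(A) RNA sequencing in 12 mice aged 1 week on a B6J;CAST background, 1 library per mouse, an age that the series title places ahead of disease. The 6 P278KY mice have 1 mutant copy (P278KY) and 1 wt copy of Gars, which encodes glycyl-tRNA synthetase, and the 6 wt mice have no mutant copy. Of either genotype 3 mice are labelled female and 3 male, and each library's name gives the labelled sex, the genotype and the mouse number. The cord was taken whole, so fewer cells of a type and less RNA per cell cannot be told apart. In people, dominant GARS mutations cause a peripheral neuropathy of the Charcot-Marie-Tooth type.

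Library totals ran from 27713981 to 43219891 expected counts. Xist and the Y-linked genes went against the labelled sex in 2 of the 12 libraries, the ones labelled female wt 14 and male wt 19, and results are given with and without them. Markers of neurons summed to between 1639 and 2184 TPM (a transcript abundance scaled to gene length and library total) and those of astrocytes to between 1894 and 2677 TPM, so the labelled tissue was present in every library. Gars itself had a log2 fold change of 0.07 (SE 0.05; edgeR adjusted p 0.9999), which does not check the genotype, since the allele alters the protein.

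Type I interferons are secreted when cells sense viral or misplaced nucleic acid. They bind a receptor made of Ifnar1 and Ifnar2, whose kinases Jak1 and Tyk2 activate transcription factors in the cell. Together with Irf9 these bind the interferon-stimulated response element in the promoters of many target genes. In the central nervous system microglia, endothelium, astrocytes and neurons can all respond, and a tonic low level of signalling is known without infection.

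The promoters of 5 of the genes are shown because they carry the core of that element. The expression values below are those of all 9, whether or not the core was found. RefSeq's table for GRCm38.p6 gave a promoter, from 250 bases before to 50 after the start site, for 7 of the 9, and Usp18 and Rtp4 had no entry. The core was searched as GAAA, any 2 bases and GAAA on both strands, with overlapping matches counted. It was found in 5 of the 7 promoters, against 1131 of 32851 promoters in the table (3.44%). The first bases of the 10 matches lay between 156 and 66 bases before the start site. The stretches below run 5′ to 3′ on the gene's strand from 160 bases before the start site to the base before it, with the matches in capitals.
Ifit1: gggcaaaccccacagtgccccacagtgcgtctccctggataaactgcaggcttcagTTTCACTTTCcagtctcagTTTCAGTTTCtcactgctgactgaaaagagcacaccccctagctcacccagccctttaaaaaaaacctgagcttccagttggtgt
Ifit3: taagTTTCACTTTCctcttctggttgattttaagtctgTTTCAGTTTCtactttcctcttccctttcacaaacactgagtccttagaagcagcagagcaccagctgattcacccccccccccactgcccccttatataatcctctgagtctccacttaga
Isg15: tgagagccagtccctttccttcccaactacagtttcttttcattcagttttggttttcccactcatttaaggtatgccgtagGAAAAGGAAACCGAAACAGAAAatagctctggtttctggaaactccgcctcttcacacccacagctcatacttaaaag
Rsad2: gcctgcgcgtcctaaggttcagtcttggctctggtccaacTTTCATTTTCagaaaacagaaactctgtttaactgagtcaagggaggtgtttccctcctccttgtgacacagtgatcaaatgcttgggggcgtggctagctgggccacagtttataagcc
Bst2: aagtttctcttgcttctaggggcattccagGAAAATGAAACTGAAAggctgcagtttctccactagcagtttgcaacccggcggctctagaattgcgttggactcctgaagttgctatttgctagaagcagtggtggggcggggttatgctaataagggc

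Ifit1's stretch is chr19:34640729-34640888 (plus strand) and Ifit3's is chr19:34583369-34583528 (plus strand), and each holds 2 matches in the form TTTC, any 2 bases and TTTC, the core read on the other strand. Their matches have the same letters, TTTCACTTTC and then TTTCAGTTTC. Isg15's stretch is chr4:156200819-156200978 (minus strand) and holds 3 overlapping matches in 1 run. Rsad2's stretch is chr12:26456453-26456612 (minus strand) and holds 1 match. Bst2's stretch is chr8:71537473-71537632 (minus strand), and its 2 matches overlap. The gamma-activated site, the motif of the interferon gamma response, was searched as TTCNNNGAA, which reads the same on both strands. It was found in Bst2's window alone of the 7, at 136 bases before the start site, where it runs into the first core match, and in 8.3% of all promoters. The windows of Irf7 and Oasl2 held neither string. Among other known type I targets with a promoter in the table, 20 of 45 genes held the core, against 3.99% of all 27025 genes in the table. These are matches of letters, not measured binding.

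The levels were low. Ranked by mean TPM over the 12 libraries, Bst2 stood highest at 5.50, followed by Rsad2 at 2.86, Isg15 at 2.42, Ifit3 at 2.05, Oasl2 at 2.0, Rtp4 at 1.88, Irf7 at 1.17, Usp18 at 0.517 and Ifit1 at 0.400. The median mean TPM of all genes tested was 13.3, so all 9 lay in the lower part of the range. Bst2 exceeded 33.6% of the tested genes and Ifit1 exceeded 4.24%. Only Bst2 and Rsad2, among neighbours in this order, had means further apart than the larger of their SDs between wt mice.

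Ifit1 and Ifit3 encode IFIT proteins, which bind viral RNA and block its translation. Ifit1 (chromosome 19, 34640871 to 34650009, plus strand; positions here from GENCODE M21 on GRCm38) read 0.17, 0.46 and 0.98 TPM (lowest, median, highest) in wt and 0.18, 0.33 and 0.43 TPM in P278KY. The 2 highest libraries were the sex-discordant ones, at 0.98 and 0.59 TPM, and the genotypes overlapped. Ifit1 had the lowest fold change of the 9 (log2 fold change -0.50, SE 0.37, 95% interval -1.31 to 0.31; edgeR adjusted p 0.9999). Without both sex-discordant libraries it was 0.083, of the opposite sign.

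Ifit3 (chromosome 19, 34583531 to 34588731, plus strand), whose product binds other IFIT proteins, read 1.31, 1.87 and 4.08 TPM in wt and 1.36, 1.92 and 2.70 TPM in P278KY. The wt maximum, in the library labelled female wt 14, stood apart, and the other 11 libraries lay between 1.31 and 2.70 TPM. Its log2 fold change was -0.07 (SE 0.22, 95% interval -0.56 to 0.42; edgeR adjusted p 0.9999), and 0.31 without both sex-discordant libraries. Ifit3 counts were fractional in 12 of 12 libraries, which is how the counting divides reads shared with a near-identical copy such as Ifit3b, so its split from that copy is uncertain. Ifit1 was fractional in 2 libraries and the other 7 genes in none.

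Isg15 (chromosome 4, 156199424 to 156200818, minus strand) encodes a ubiquitin-like protein that is joined to other proteins. It read 0.63, 2.89 and 3.35 TPM in wt and 1.80, 2.48 and 2.81 TPM in P278KY. All 6 P278KY libraries lay inside the wt range, whose low end was male wt 9, with 6 counts. Between genotypes the log2 fold change was 0.01 (SE 0.32, 95% interval -0.68 to 0.70; edgeR adjusted p 0.9999), with -0.20 when male wt 9 was left out.

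Usp18 (chromosome 6, 121245906 to 121270917, plus strand), 66.2 Mb from Gars on the same chromosome, encodes the protease that removes Isg15 from proteins and also dampens the receptor. It read 0.17, 0.49 and 0.89 TPM in wt and 0.20, 0.52 and 0.70 TPM in P278KY. Counts ran from 5 to 26 per library in wt and from 6 to 18 in P278KY, and the genotypes overlapped. Its log2 fold change was -0.13 (SE 0.38, 95% interval -0.96 to 0.70; edgeR adjusted p 0.9999). Usp18 shares 15715 bases with Gm44148, a non-coding gene on the opposite strand that was not among the genes counted.

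Irf7 (chromosome 7, 141262706 to 141266481, minus strand) encodes the transcription factor that amplifies interferon production. It read 0.32, 1.35 and 2.29 TPM in wt and 0.73, 0.98 and 1.24 TPM in P278KY. The P278KY libraries again fell within the wt range, with 4 wt libraries above all of them and 2, male wt 6 and 9, below. The log2 fold change was -0.29 (SE 0.40, 95% interval -1.14 to 0.57; edgeR adjusted p 0.9999). Irf7 shares 45 bases with Phrf1 on the opposite strand.

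Oasl2 (chromosome 5, 114896936 to 114912234, plus strand) belongs to the oligoadenylate synthetase family, whose products sense double-stranded RNA. It read 1.02, 1.92 and 3.71 TPM in wt and 1.37, 1.93 and 2.26 TPM in P278KY. The TPM medians were close and the wt range enclosed the other. In CPM (counts per TMM-scaled library total) the medians were 2.34 in wt and 1.90 in P278KY. There, 5 P278KY libraries lay below the wt median. For Oasl2 the log2 fold change was -0.26 (SE 0.25, 95% interval -0.80 to 0.28; edgeR adjusted p 0.9999).

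Rsad2 (chromosome 12, 26442746 to 26456452, minus strand) encodes viperin, which makes a nucleotide that stops viral polymerases. It read 0.71, 2.74 and 5.78 TPM in wt and 1.49, 3.07 and 4.61 TPM in P278KY. Its 46 to 370 counts per library are the widest spread of the 9, with a highest-to-lowest ratio of 9.39 in CPM (counts per TMM-scaled library total). Its log2 fold change was 0.09 (SE 0.51, 95% interval -1.03 to 1.22; edgeR adjusted p 0.9999), and -0.19 without male wt 6, the lowest library. In male wt 6 and female wt 1, the 2 libraries with the lowest Rsad2 CPM, 5 red blood cell markers summed to 4479 and 3830 TPM, below the 6551 TPM or more of the other 10 libraries. The same 2 libraries were also lowest for lymphocyte markers (1.69 and 1.77 TPM, elsewhere 2.03 or more). So they were for bone and cartilage markers (16.7 and 18.3 TPM, elsewhere 20.4 or more). Other lists differed. Neuron markers were highest in these 2 libraries (2166 and 2184 TPM, elsewhere at most 2081), and neutrophil and marrow markers were lowest in female P278KY 4 (96.0 TPM). All these lists were picked after their values were seen. The part of these markers in the result was not tested.

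Bst2 (chromosome 8, 71534255 to 71537456, minus strand) encodes tetherin, which holds budding enveloped viruses at the cell surface. It read 2.92, 5.98 and 8.13 TPM in wt and 3.55, 5.0 and 7.90 TPM in P278KY, with nearly full overlap. The log2 fold change was -0.14 (SE 0.24, 95% interval -0.67 to 0.39; edgeR adjusted p 0.9999).

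Rtp4 (chromosome 16, 23520291 to 23614222, plus strand) encodes a chaperone that helps receptors reach the cell surface. It read 1.10, 1.94 and 3.08 TPM in wt and 1.43, 1.87 and 2.06 TPM in P278KY, again inside the wt range. For Rtp4 the log2 fold change was -0.08 (SE 0.24, 95% interval -0.59 to 0.44; edgeR adjusted p 0.9999). Rtp4 shares 525 bases with Masp1 on the opposite strand. It also shares 39791 bases with Gm45338, a processed transcript on the same strand that was not among the genes counted.

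**Figure D1:**
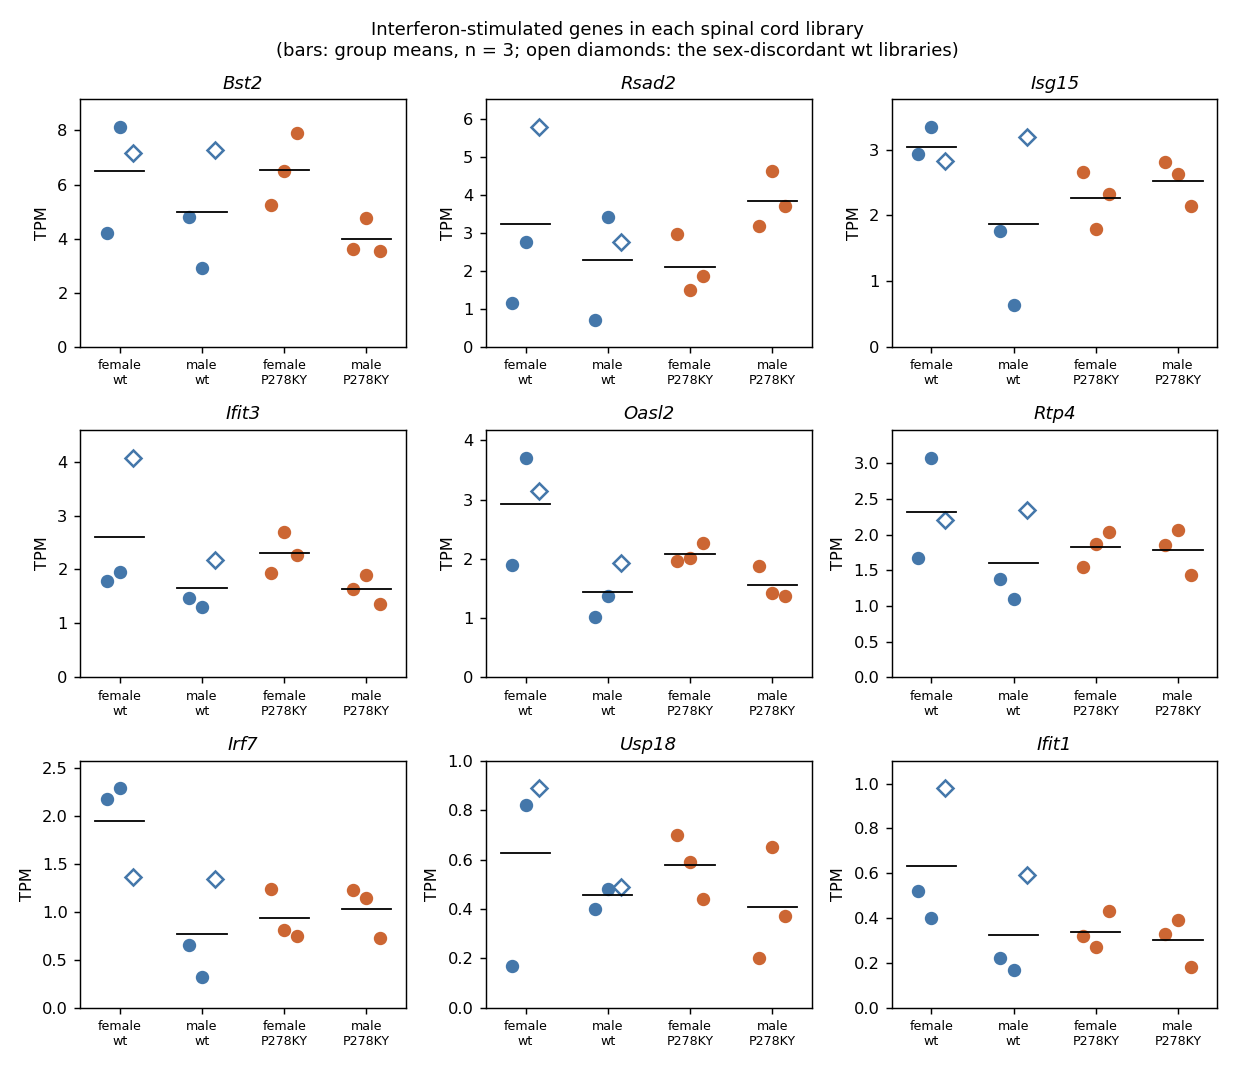
TPM of each gene (y axis, from 0, scaled per gene) in the 12 libraries, in 4 groups of labelled sex and genotype, with the mean of 3 as a bar and the sex-discordant wt libraries as open diamonds. In all 9 genes the wt and P278KY points overlap.

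Over all 12 libraries, 0 of the 9 genes were called for genotype, at an edgeR adjusted p of at most 0.05. The same test called 1 of the 17995 genes (0.00556%). At an unadjusted p under 0.05 the test passed 0 of the 9, against 4.09% of all genes. DESeq2 called 33 genes (0.183%), again 0 of the 9. The 6 and 6 libraries did not separate in any of the 9, where 40 of all genes (0.222%) separated. Point estimates were lower in P278KY for 7 genes and higher for 2, with a median log2 fold change of -0.13, beside -0.006 over all genes tested. The 9 genes share libraries and vary together, so that count is not 9 separate observations.

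The precision of these estimates differed between genes. For 8 of the 9 the 95% interval lay below a 2-fold higher level, Rsad2 being the one that did not, and for 6 it lay above a 2-fold lower level. At the extremes, the intervals reach down to 0.403-fold for Ifit1 and up to 2.34-fold for Rsad2. Without both sex-discordant wt libraries, 7 of the 9 estimates were above 0 and 2 below, with a median of 0.08, and no gene was called.

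Within the libraries labelled female, estimates were lower in P278KY for 8 of the 9, with Bst2 at 0.03, and the median log2 fold change was -0.40. That count rests on the library labelled female wt 14: without it 5 were lower and 4 higher (median -0.37), as was the case without both sex-discordant libraries (median -0.37). Oasl2 read 1.90, 3.71 and 3.15 TPM in the wt and 1.97, 2.02 and 2.26 TPM in the P278KY libraries. Its log2 fold change of -0.70 (SE 0.31) had an unadjusted edgeR p of 0.047 and an adjusted p of 0.458. It was the only one of the 9 at an unadjusted p under 0.05, where 10.7% of all genes passed, and edgeR called 0 genes.

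In the libraries labelled male, estimates were higher for 6 of the 9 and lower for 3, with a median of 0.17. Without both sex-discordant libraries 8 were higher and 1 lower (median 0.59), and without male wt 19 alone the median was 0.60. Without male wt 6 or male wt 9, 4 were higher and 5 lower, with medians of -0.031 and -0.022. Rsad2 stood at 0.77 (SE 0.67; edgeR adjusted p 0.961), Isg15 at 0.43 and Irf7 at 0.33 with all libraries, and at 0.94, 1.12 and 1.23 without both sex-discordant ones. None of the 9 passed an unadjusted p under 0.05, against 4.91% of all genes. The difference of the 2 effects, female minus male, was tested as an interaction, and 0 of the 9 were called, as were 0 genes of 17995. At an unadjusted p under 0.05 it passed 0 of the 9 and 10.9% of all genes. Oasl2 had the smallest interaction p (unadjusted edgeR p 0.071, adjusted p 0.502). DESeq2 called 296 genes (1.64%) in females, 34 (0.189%) in males and 279 (1.55%) for the interaction, 0 of the 9 among them. In females it gave Ifit1, Isg15, Irf7, Usp18 and Rtp4 no adjusted p, so these could not be called there. In each sex 1 of the 3 wt libraries was sex-discordant.

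**Figure D2:**
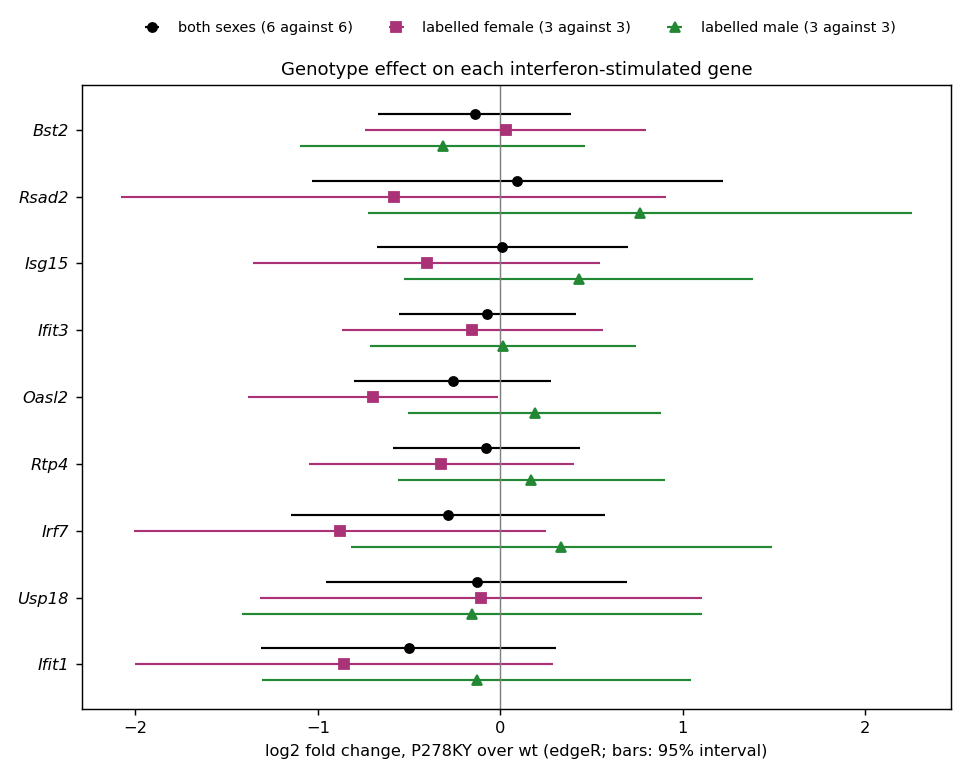
Log2 fold change of P278KY over wt (x axis) for each gene (rows), with 95% intervals, over all 12 libraries, in those labelled female and in those labelled male. All intervals over both sexes include 0, and Oasl2 in females is the single interval that does not, ending at -0.01.

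Levels varied between mice of the same genotype, and more so in wt. Each gene's log2 CPM was scaled to a z-score over the 12 libraries, and the mean of the 9 z-scores served as a summary of each library. It ran from -1.18 (male wt 9) to 1.24 (the library labelled female wt 14) in wt, with an SD of 1.07, and from -0.65 to 0.31 in P278KY, with an SD of 0.35. All 9 genes were above their own mean in female wt 2 and in the libraries labelled female wt 14 and male wt 19, and 0 of 9 were in male wt 6. The highest CPM was in the library labelled female wt 14 for 5 genes and in female wt 2 for 4. The lowest was in male wt 9 for 6 genes, in male wt 6 for 2 and in female wt 1 for Usp18.

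The SD of CPM was larger in wt than in P278KY for 9 of the 9 genes, and for 58.4% of all genes tested. Without both sex-discordant libraries this held for 8 of the 9 genes and for 8670 of 17995 genes. The coefficient of variation in wt ranged from 37.5% (Bst2) to 65.2% (Rsad2). In P278KY it ranged from 15.5% (Rtp4) to 40.6% (Rsad2). This difference in spread is given as a description, with no test.

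**Figure D3:**
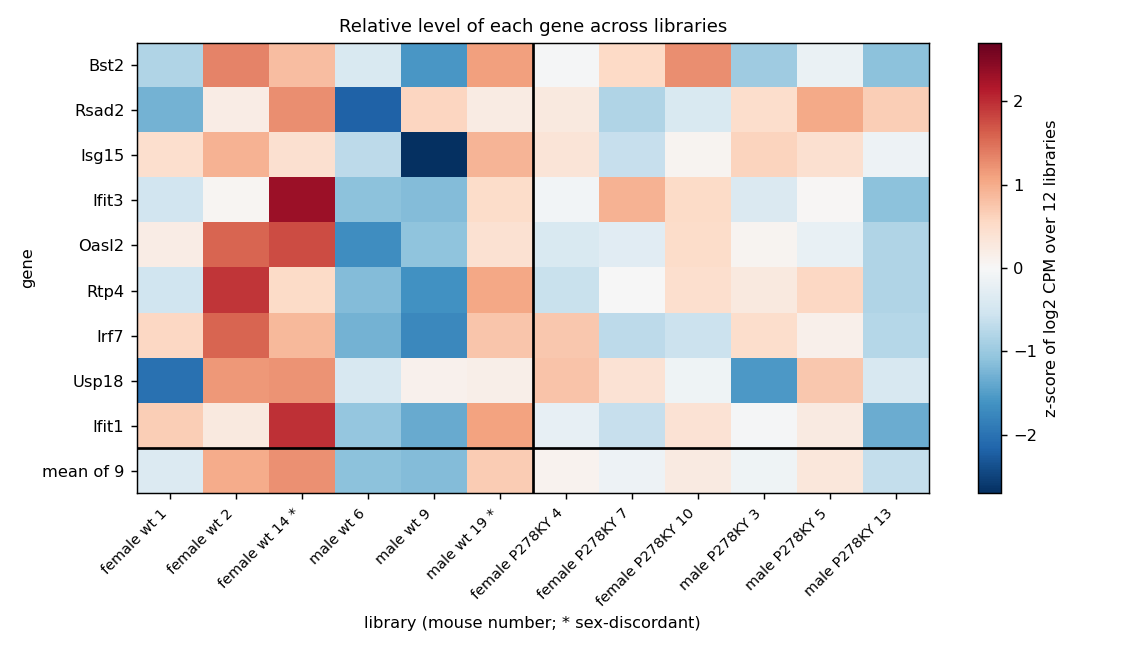
Z-scores of log2 CPM over the 12 libraries (colour) for each gene and their mean (rows) by library (columns, wt left of the line, sex-discordant libraries starred). The strongest colours, high and low, are in wt columns, where the mean runs from -1.18 to 1.24.

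The genes tended to be high in the same libraries. Across the 36 pairs of genes, Pearson's r over the 12 libraries had a median of 0.56 and ran from 0.02 (Isg15 with Usp18) to 0.86 (Isg15 with Irf7). All 36 were above 0. Within the 6 wt libraries the median was 0.67, and within the 6 P278KY libraries it was 0.28, with 23 of 36 above 0. The wt libraries include both sex-discordant ones, in each of which all 9 genes were above their own mean. The mean z-score also spread less in P278KY (SD 0.35) than in wt (SD 1.07), and the difference in r was not tested. Without both sex-discordant libraries the median over the other 10 was 0.50, with 32 of 36 above 0 and the lowest at -0.14. These are descriptions over points that share libraries and scaling, and no such median is given for pairs of other genes.

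Oasl2 (r 0.89) and Rtp4 (r 0.85) followed the mean of the other 8 genes most closely. Usp18 (r 0.42) and Rsad2 (r 0.35) followed it least, so the genes do not move as 1 block.

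The pattern was compared with every other gene that passed the filter, leaving out predicted genes, by Pearson's r with the mean z-score over the 12 libraries. The 8 most alike of 15271 were Tcf7l1 (r 0.92), Gpr160 (r 0.91), Surf4 (r 0.91), Rpl15-ps3 (r 0.91), Il21r (r 0.90), Rpl23a (r 0.90), Has2os (r 0.90) and Eef1a1 (r 0.90). None of these 8 is on a list of interferon pathway genes, and 3 of the top 100 are: Oas1a at rank 43 (r 0.83), Ifitm2 at rank 52 (r 0.82) and Socs3 at rank 62 (r 0.82). The lists held 118 of the genes ranked.

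Cell type markers were read beside this pattern. The library labelled female wt 14, where the mean z-score was highest, also had the highest sums of 5 markers of meninges and fibroblasts (1271 TPM), of 8 markers of border macrophages and monocytes (89.8 TPM) and of 5 markers of sensory ganglion neurons (91.7 TPM). Elsewhere the ganglion sum was at most 5.93 TPM. The library labelled female wt 14 also had the highest red blood cell sum (17470 TPM). Its bone and cartilage sum (130 TPM) was just below the highest, in male P278KY 5 (131 TPM). Female wt 2, with the next highest mean z-score, had 344 TPM of the meningeal list, 40.0 TPM of the macrophage list and 6551 TPM of the red blood cell list.

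Microglia, which respond to interferon, had 12 markers whose sum was 199 to 272 TPM in wt and 204 to 300 TPM in P278KY, with the lowest value in male wt 6. Male wt 9, the library with the lowest mean z-score, had 64.0 TPM of the macrophage list and the highest sum of 7 neutrophil and marrow markers (809 TPM). That list ran from 111 to 809 TPM in wt and from 96.0 to 572 TPM in P278KY, and the macrophage list from 24.2 to 89.8 TPM and from 31.5 to 73.3 TPM. The sums were 270 to 1271 TPM in wt and 386 to 760 TPM in P278KY for meninges and fibroblasts. Endothelium, which also responds to interferon, had 6 markers that summed to 142 to 190 TPM in wt and 161 to 190 TPM in P278KY. The lowest value was in male wt 9. The highest, 190.4 TPM, was in the library labelled female wt 14 and, to the same digits, in female P278KY 10, whose mean z-score was 0.23.

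By genotype, the lists furthest from 0 were sensory ganglion neurons, skeletal muscle and Schwann cells. Of 5 ganglion markers all 5 estimates were lower in P278KY, 2 of them at an unadjusted edgeR p under 0.05 and none called (median -3.06), with the high wt sum in the library labelled female wt 14. Of 6 skeletal muscle markers all 6 estimates were higher in P278KY, 3 of them at an unadjusted edgeR p under 0.05 and none called, with a median log2 fold change of 2.71. Their sums were 9.73 to 736 TPM in wt and 57.0 to 1909 TPM in P278KY. Of 5 Schwann cell markers all 5 estimates were lower and none was called, with a median of -0.84 and sums of 237 to 3309 TPM in wt and 46.4 to 2457 TPM in P278KY. No marker on these lists was at 0 in all libraries, and their part in the result was not tested.

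The rest of the interferon pathway was read from 8 lists of 144 genes. Of these, 121 were tested and 0 were called, with 46 estimates higher and 75 lower and a median log2 fold change of -0.04. At an unadjusted p under 0.05, 3 were higher and 2 lower, against 432 higher (2.4%) and 304 lower (1.69%) among all 17995. Genes were named from the 2 with the smallest p in each list and the one with the highest mean TPM. Each has an edgeR adjusted p of 0.9999.

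The ligands were near the limit of detection. Of 12 interferon genes, 7 had no count in any library and none was tested. A count of 0 allows up to 3 counts, or between 0.0694 and 0.108 CPM by library, counting error only. Ifnb1, the gene of interferon beta, had 1 count, in 1 P278KY library. Ifng, the gene of interferon gamma, had 4 counts in wt and 2 in P278KY.

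Of the 6 receptors, 5 had a higher mean TPM than any of the 9 genes, and Ifnlr1, at 0.413 TPM in wt and 0.348 TPM in P278KY, did not. All 6 were tested, with 3 estimates higher and 3 lower. Ifngr2, a chain of the gamma receptor, had a mean TPM of 35.4 ± 6.40 (SD, n = 6) in wt and 35.01 ± 4.46 (SD, n = 6) in P278KY. Ifnlr1, of the lambda receptor, had the smallest p (log2 fold change -0.28, SE 0.31), followed by Ifngr1 (0.07, SE 0.09).

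Of 15 signalling and transcription factors, 14 were tested, with 3 estimates higher and 11 lower (median -0.03). Stat2, a transcription factor of the type I response, stood at -0.12 on the log2 scale (SE 0.09), and Jak1, the kinase with the highest level of the list, had -0.006 (SE 0.04).

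Of 16 nucleic acid sensors and processing enzymes, 15 were tested, with 4 estimates higher and 11 lower (median -0.08). Ddx58, the RNA sensor RIG-I, had -0.19 (SE 0.10) and Tmem173, the adaptor STING, -0.24 (SE 0.13). Adar, which edits double-stranded RNA and is the highest of the list, had -0.06 (SE 0.07).

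All 4 genes of Isg15 conjugation were tested, with 3 estimates higher and 1 lower. Uba7, the activating enzyme, had 0.25 (SE 0.18), Trim25, a ligase, 0.12 (SE 0.10) and Ube2l6, the conjugating enzyme, 0.08 (SE 0.25). The 6 negative regulators gave 2 higher and 4 lower, with Ptpn2 at -0.07 (SE 0.06), Ptpn6 at -0.19 (SE 0.20) and Irf2bp1, of the highest level, at -0.0008 (SE 0.05). Ptpn2 and Ptpn6 are phosphatases that dampen the signal.

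Other type I targets numbered 58, of which 52 were tested, with 19 estimates higher and 33 lower (median -0.04). Xaf1, which promotes apoptosis, had 3.91 ± 1.49 TPM (SD, n = 6) in wt and 3.19 ± 0.584 TPM (SD, n = 6) in P278KY, with a log2 fold change of -0.52 (SE 0.17; unadjusted edgeR p 0.0095, adjusted p 0.9999). Lgals3bp, a secreted glycoprotein, had -0.35 (SE 0.17) and Ifitm2, a membrane protein that hinders virus entry, -0.03 (SE 0.16).

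Genes of the interferon gamma response and class I antigen presentation numbered 27, of which 24 were tested, with 12 estimates in each direction and a median of 0.0006. Gbp3, a guanylate-binding protein, had 2.85 ± 0.255 TPM (SD, n = 6) in wt and 3.72 ± 0.503 TPM (SD, n = 6) in P278KY, with a log2 fold change of 0.40 (SE 0.11; unadjusted edgeR p 0.00417, adjusted p 0.9999). Gbp2b had 2.14 (SE 0.79) on 13 counts in wt and 52 in P278KY. B2m, the light chain of class I molecules, had the highest level of the list and a log2 fold change of -0.08 (SE 0.10).

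**Figure D4:**
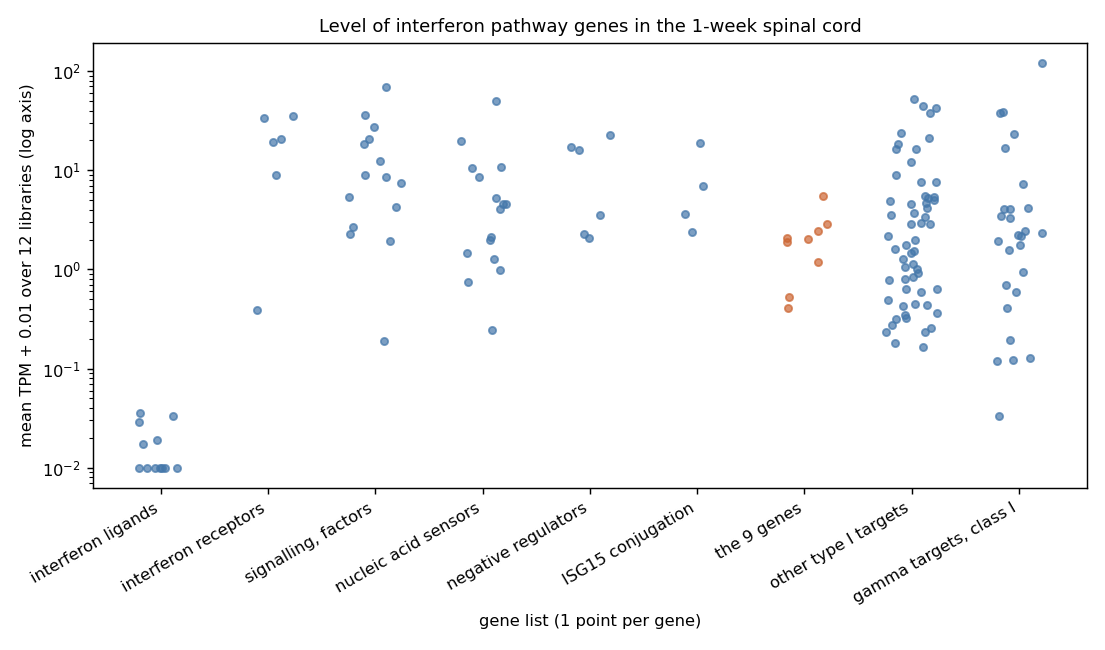
Mean TPM plus 0.01 over the 12 libraries (log axis) of each gene in 8 pathway lists and of the 9 genes (orange). The ligands lie at the bottom of the axis, 7 of 12 at a TPM of 0, and 5 of the 6 receptors lie above all 9 genes.

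**Figure D5:**
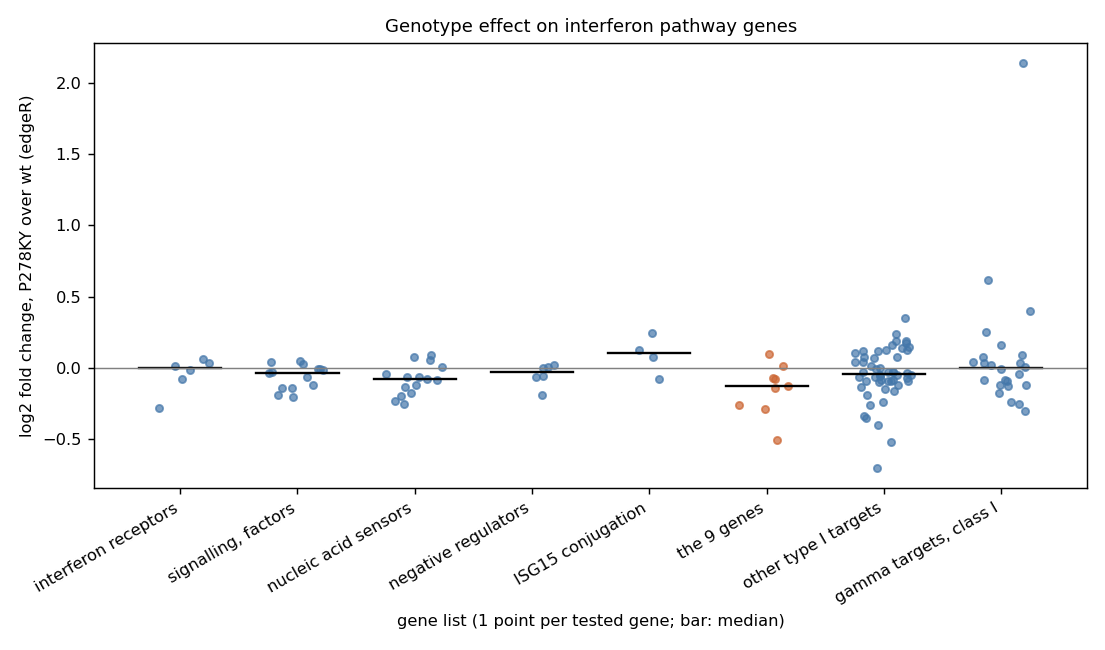
Log2 fold change of P278KY over wt (y axis) of each tested gene in the 9 genes (orange) and in 7 pathway lists, with each list's median as a bar. The medians lie close to 0, and the highest point is Gbp2b at 2.14, on 13 and 52 counts.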

How the data were processed

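Spinal cord RNA of 12 mice was prepared with KAPA stranded mRNA kits and sequenced paired-end, per the labels' protocols. Bowtie2 2.2.0 and RSEM 1.2.12 are named, without roles, in the submitters' processing notes. The strand setting, like genome build and annotation, was not given in the sources used here, so reads of genes overlapping on opposite strands may not be separable. Per the file headers, the authors deposited an expected count (an estimated count that need not be whole), a TPM value (scaled by transcript length and library total) and an FPKM value per gene. The deposited FPKM values were not used.

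Expected counts were rounded, filtered with filterByExpr over the 4 groups and TMM-scaled. Testing used edgeR 4.0.16 (robust quasi-likelihood) in R 4.3.3, with labelled sex as a term over all 12 libraries, Benjamini-Hochberg adjustment over 17995 genes and a threshold of 0.05. Within-sex effects and the interaction used 1 mean per group. Standard errors are the log2 fold change over the square root of F, and a prior count of 2 went into log2 CPM. The common biological coefficient of variation was 23.9%. Replicates are separate mice, and no 2 libraries of the same group were duplicates by a chi-square test of counts. The procedure was tested on simulated data.

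Every one of the 9 genes is named. Of each pathway list the rule names genes past the threshold, or else the 2 with the smallest p, plus the highest mean TPM, and 1 gene that it names is not reported here. The 8 genes most alike in pattern are named by Pearson's r. The 2 libraries singled out for low Rsad2, the marker lists named beside them and the 3 pathway genes in the top 100 by likeness were chosen after their values were seen. The 9 genes, the lists and the rules were chosen with earlier results of these data known. Alternatives were RLE factors, library totals, no filter, a strict filter (at least 6 libraries over 1 CPM), DESeq2 1.42.0, limma 3.58.1 (voom, and trend on log2(TPM + 1) and log2(TPM + 0.1)), no sex term, Y-linked expression as the sex term, omission of both sex-discordant libraries, and each library left out.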

Additional observations from a re-analysis of the deposited data

Results flagged for a closer look

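The wt libraries held 1 outlying value among the 9 genes. Ifit3 in the library labelled female wt 14 was at 3.54 CPM, and its gap to the next wt library was 0.647 of the wt range, above Dixon's critical value for 6 samples. Of 18 groups (9 genes in 2 genotypes) this was the 1 flagged, and chance flags about 1 in 20. That library's sex marks go against its label. Its ganglion, meningeal, macrophage and red blood cell markers are the highest of the 12. Its endothelial markers (190.4 TPM) are the highest together with those of female P278KY 10, to the digits given. Their part in the result was not tested. Without it the log2 fold change of Ifit3 was 0.15.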

How the results depend on the processing

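No paired analysis was run, because the labels name no pairs of mice. None of the 9 genes was called under any alternative run. However, DESeq2 in females gave Ifit1, Isg15, Irf7, Usp18 and Rtp4 no adjusted p, and the strict filter kept 5 of the 9. Among the adjusted p-values given, the smallest was 0.909 for genotype, 0.367 in females, 0.485 in males and 0.222 for the interaction. The number of all genes called, 1 for genotype, was 33 with DESeq2, 2 without the sex term, 0 with the strict filter and 0 without both sex-discordant libraries. From 0 it went in females to 296 with DESeq2, 1 on log2(TPM + 0.1) and 11 without both sex-discordant libraries, in males to 34, 1 and 4, and for the interaction to 279 with DESeq2, 3 with no filter and 5 without both. Leaving out 1 library gave 1 to 3 genes for genotype (3 without female wt 2 and 2 without female P278KY 10), 0 to 9 in females (9 without female wt 14, 2 without female wt 2), 0 to 4 in males (4 without female wt 14, 2 without female P278KY 10) and 0 to 3 for the interaction (3 without female wt 14, 1 without female wt 2). Of 203 genotype estimates of the 9 genes under alternatives, 182 kept their sign, as did 173 of 185 in females, 171 of 185 in males and 175 of 185 for the interaction.

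Signs changed as follows, in log2 units, and the cause was not tested. For genotype, Isg15 was -0.00322 with library totals and -0.011 without the sex term. Without both sex-discordant libraries, genotype estimates were 0.083 for Ifit1, 0.31 for Ifit3, 0.069 for Usp18, 0.10 for Bst2 and 0.085 for Rtp4. In females Usp18 was 0.22 with voom and 0.093 on log2(TPM + 0.1), and without both libraries Ifit3 was 0.31, Rsad2 0.12 and Usp18 0.21. In males Ifit3 was -0.00066 with library totals and -0.0020 on log2(TPM + 1), and without both libraries Ifit1 was 0.69 and Bst2 0.10. For the interaction without both, Ifit3 was 0.018 and Bst2 -0.00036.

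Leaving out 1 library moved the genotype estimates of Ifit3 from -0.16 to 0.15, of Isg15 from -0.20 to 0.23, of Rsad2 from -0.19 to 0.48, of Usp18 from -0.35 to 0.0165, of Bst2 from -0.27 to 0.061 and of Rtp4 from -0.19 to 0.085. In females it moved Ifit3 from -0.38 to 0.31, Rsad2 from -0.99 to 0.12, Usp18 from -0.57 to 0.21 and Bst2 from -0.22 to 0.26. In males it moved Ifit1 from -0.42 to 0.70, Ifit3 from -0.11 to 0.30, Oasl2 from -0.031 to 0.60, Usp18 from -0.66 to 0.18, Bst2 from -0.57 to 0.10 and Rtp4 from -0.022 to 0.59. For the interaction it moved Ifit3 from -0.45 to 0.30, Usp18 from -0.41 to 0.55 and Bst2 from -0.073 to 0.60. The genotype estimates of Ifit1, Irf7 and Oasl2 stayed below 0 with each library left out. Precision did not follow the counts alone: Rsad2 had the most counts over the 12 libraries (2310) and the largest SE (0.51), and Usp18 the fewest (184) with an SE of 0.38.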
